A study of Homo sapiens with 12 samples.

Results

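PPARG, ACLY, FADS2 and CPT2, a lipid regulator and 3 enzymes of fatty acid synthesis, desaturation and oxidation, were followed in xenograft tumours of Hep3B, an established line of human hepatocellular carcinoma. The 4 genes were chosen by name and are 4 of the 4988 genes of the mRNA table. hsa-miR-1908-5p, 1 of 1451 features of the small RNA table, is described beside FADS2 because its locus lies inside the locus that the table lists for FADS2. A bufotalin group and a control group were compared, each with 3 libraries of total RNA and 3 of small RNA. Bufotalin is a bufadienolide of toad venom that blocks the sodium pump. Both groups carried the same cell line, treatment is the one difference that the labels give, and dose, duration, vehicle, host animal and its age are not given in the sources used here. Nothing says that the libraries came from separate animals, so a p-value measures the spread between libraries, which may be only technical.

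The liver makes fatty acids from cytosolic acetyl-CoA. ACLY, ATP citrate lyase, produces that acetyl-CoA from citrate exported by mitochondria. FADS2, the delta-6 desaturase, adds the first new double bond in the pathway from essential to long-chain polyunsaturated fatty acids. CPT2, carnitine palmitoyltransferase on the inner mitochondrial membrane, turns acylcarnitines back into acyl-CoA so that they can be oxidised. PPARG is a nuclear receptor that binds DNA with a retinoid X receptor partner and drives fat storage genes; it is best known from adipocytes and is low in normal hepatocytes.

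The sequences that bear on the FADS2 locus are those of miR-1908, from RefSeq on GRCh38.p14. The mature miRNA (chr11:61815209-61815229, minus strand) is shown with its seed, bases 2 to 8, in capitals, and the hairpin (chr11:61815161-61815240, minus strand) with the 5p arm in capitals.
hsa-miR-1908-5p: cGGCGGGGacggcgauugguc
MIR1908 hairpin: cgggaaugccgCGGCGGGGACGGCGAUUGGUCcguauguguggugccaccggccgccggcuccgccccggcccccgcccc
The RefSeq table gives the same seed to hsa-miR-663a, hsa-miR-6787-5p and hsa-miR-10396b-5p, which were not analysed here.

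The 4 genes moved in both directions, so their promoters are shown to let them be compared: 250 bases before to 50 after the RefSeq start nearest to the listed 5′ end, on GRCh38.p14, read 5′ to 3′ on the gene's strand. Capitals mark CCAAT, the box bound by NF-Y, and GGGCGG, a GC box of the kind bound by Sp1, on either strand (ATTGG and CCGCCC in reverse).
PPARG (chr3:12287118-12287417, plus strand): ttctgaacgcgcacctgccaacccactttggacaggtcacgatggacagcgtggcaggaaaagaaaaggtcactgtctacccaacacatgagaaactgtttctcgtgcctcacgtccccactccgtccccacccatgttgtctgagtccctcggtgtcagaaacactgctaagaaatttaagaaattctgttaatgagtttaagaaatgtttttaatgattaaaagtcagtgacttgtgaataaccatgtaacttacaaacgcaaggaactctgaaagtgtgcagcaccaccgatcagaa
ACLY (chr17:41918973-41919272, minus strand): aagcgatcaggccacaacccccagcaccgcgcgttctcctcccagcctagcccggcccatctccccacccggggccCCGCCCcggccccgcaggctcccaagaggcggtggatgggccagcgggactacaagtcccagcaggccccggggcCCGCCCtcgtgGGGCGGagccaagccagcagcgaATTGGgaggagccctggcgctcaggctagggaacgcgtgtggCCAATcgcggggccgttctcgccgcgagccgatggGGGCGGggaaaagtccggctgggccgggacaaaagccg
FADS2 (chr11:61815953-61816252, plus strand): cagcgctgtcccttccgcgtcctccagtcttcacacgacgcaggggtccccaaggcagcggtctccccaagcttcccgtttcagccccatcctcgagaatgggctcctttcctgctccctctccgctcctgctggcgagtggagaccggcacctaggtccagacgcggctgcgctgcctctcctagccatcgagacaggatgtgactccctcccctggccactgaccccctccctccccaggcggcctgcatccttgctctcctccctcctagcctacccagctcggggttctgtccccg
CPT2 (chr1:53196574-53196873, plus strand): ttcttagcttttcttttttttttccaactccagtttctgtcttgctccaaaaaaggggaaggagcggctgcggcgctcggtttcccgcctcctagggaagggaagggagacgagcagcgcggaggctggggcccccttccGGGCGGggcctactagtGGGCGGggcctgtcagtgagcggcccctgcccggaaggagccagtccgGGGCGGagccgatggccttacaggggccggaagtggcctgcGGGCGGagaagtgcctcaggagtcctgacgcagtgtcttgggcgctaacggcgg
The ACLY window held 2 CCAAT boxes and 4 GC boxes, the CPT2 window held 4 GC boxes and no CCAAT, and the PPARG and FADS2 windows held neither. Among 27305 promoters, 1 for each gene of the RefSeq table, 35.7% held CCAAT and 44.6% held GGGCGG on either strand. CACGTG (7.43% of promoters), the PPAR element written as a pair of AGGTCA sites with any 1 base between them (0.022%) and the sterol regulatory element of the LDL receptor gene (0.0476%) had no exact match on either strand in the 4 windows. G+C content was 45.0% in the PPARG window, 73.3% in ACLY, 66.7% in FADS2 and 65.0% in CPT2. RefSeq lists 6 starts for PPARG and 2 each for ACLY and FADS2, so 1 window does not stand for every transcript. The start used lay 11520 bases from the listed 5′ end for ACLY and 23223 for FADS2, beside 0 for PPARG and 32 for CPT2. The ACLY and FADS2 windows are therefore not those of the listed 5′ ends.

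PPARG was much lower in the treated tumours. PPARG (ENSG00000132170; chromosome 3, 12287368 to 12434356 on GRCh38) had 3.91, 3.54 and 2.93 FPKM (fragments per kilobase of transcript, scaled to library size) in bufotalin replicates 1, 2 and 3, against 16.6, 12.2 and 15.2 FPKM in control replicates 1, 2 and 3. The highest treated library stayed below the lowest control library. The means were 3.46 ± 0.493 FPKM in bufotalin and 14.7 ± 2.22 FPKM in control libraries (SD, n = 3 each), a 4.25-fold lower level with bufotalin. On the log2(FPKM + 1) scale, which understates changes of low genes, the fold change of bufotalin over control was -1.81 (SE 0.14, 95% confidence interval -2.13 to -1.495, adjusted p = 4.26e-06 by limma with Benjamini-Hochberg adjustment over 4273 tested genes). In bulk tumour RNA, fewer cells of a type and less RNA per cell cannot be told apart.

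All 4 genes passed the limma test and had no overlap between groups, but 93.2% of the tested genes passed (44.3% higher and 48.8% lower with bufotalin) and 92.5% had no overlap, in a table of genes that the authors had selected as different on these same samples. Passing is therefore not a result about these 4 genes, and the sizes and directions below are given as measured. Called lower and at least 2-fold lower by the ratio of means were PPARG and CPT2, as were 38.3% of tested genes. FADS2 was called higher and at least 2-fold higher, as were 10.5%.

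**Figure D1:**
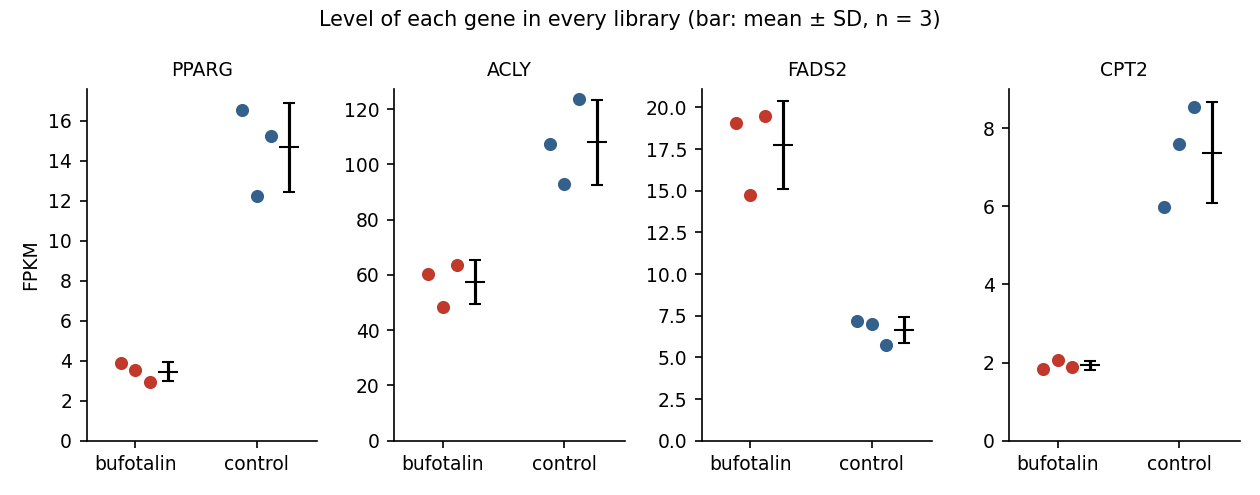
FPKM of PPARG, ACLY, FADS2 and CPT2 in each total RNA library, bufotalin libraries in red and control libraries in blue, with mean ± SD (n = 3) beside the points and each vertical axis starting at 0. PPARG, ACLY and CPT2 lie lower in all 3 bufotalin libraries (PPARG means 3.46 against 14.7 FPKM), and FADS2 lies higher in all 3 (17.7 against 6.63 FPKM).

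Most tested regulators listed around PPARG rose, while PPARG, NR1H3 and PPARA fell; means below are given ± SD of 3 libraries. NR1H3, which encodes the oxysterol receptor LXR alpha, had 2.63, 2.84 and 3.67 FPKM in bufotalin and 15.4, 20.8 and 20.5 FPKM in control libraries, and fell (log2 fold change -2.30, SE 0.15). RXRA, the retinoid X receptor partner of PPARG, rose to 43.6 ± 0.937 FPKM in bufotalin, against 19.7 ± 1.02 FPKM in control libraries (1.11, SE 0.10). The transcription factor CEBPB, an early factor of fat cell formation, rose to 54.6 ± 1.94 FPKM, against 32.3 ± 4.54 FPKM in control (0.75, SE 0.12). PPARA, the receptor that drives fatty acid oxidation in liver and a gene chosen after its values were seen, had 2.51 ± 0.815 FPKM in bufotalin and 5.71 ± 1.51 FPKM in control (-0.94, SE 0.21), but under quantile normalization it had -0.36 and was not called. Over all tested genes 44.3% were called higher. Of 28 listed receptors, partners and factors, 12 were tested, of which 9 rose and 3 fell (PPARG, NR1H3 and PPARA). Of the 9, 4 lost their call when 1 library was left out: EP300 without bufotalin replicate 2 or 3 or control replicate 1 (0.27 to 0.31), NCOA3 without bufotalin replicate 3 or control replicate 1 or 2 (0.28 to 0.35), PPARGC1A without bufotalin replicate 3 or control replicate 1 (0.30 and 0.27), and CEBPA without control replicate 1 (0.32).

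Of 25 genes that textbooks give as PPAR targets, in part from rodents, 8 were tested, of which 6 fell and 2 rose. Over all tested genes 48.8% were called lower and 44.3% higher. Under quantile normalization CREB3L3 (-0.11), one that fell, and CPT1A (0.18), one that rose, were not called. UCP2, a mitochondrial carrier, had 2.54, 2.72 and 3.64 FPKM in bufotalin and 38.4, 42.1 and 40.8 FPKM in control libraries, and fell (-3.39, SE 0.13). PCK1, the cytosolic enzyme that commits oxaloacetate to glucose and glycerol synthesis, had 0.261, 0.233 and 0.317 FPKM in bufotalin and 8.81, 5.98 and 8.67 FPKM in control (-2.78, SE 0.15). CIDEC, a lipid droplet fusion protein, had 0.152, 0.116 and 0.136 FPKM in bufotalin and 4.93, 3.25 and 5.09 FPKM in control (-2.24, SE 0.15). All 3 were lower in each treated library than in any control library. LPL, lipoprotein lipase, which releases fatty acids from circulating triglyceride, went the other way and rose to 205 ± 6.44 FPKM in bufotalin, against 92.5 ± 8.22 FPKM in control libraries (1.14, SE 0.11).

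Adipocytes and macrophages also express PPARG, so their markers stand beside it. In a xenograft such other cells belong to the host, while the processing notes name the human build GRCh38. Whether the values below come from host cells or from the Hep3B line was not tested. CIDEC was the only 1 of 8 adipocyte markers analysed, with 0.116 to 0.152 FPKM in bufotalin and 3.25 to 5.09 FPKM in control libraries. Of 8 macrophage and leukocyte markers 3 were analysed, CD14, CSF1R and ITGAM, with a summed level of 4.61 to 6.82 FPKM in bufotalin and 3.18 to 3.53 FPKM in control libraries. CSF1R was called higher, with 3.97 to 6.09 FPKM in bufotalin and 3.14 to 3.41 FPKM in control libraries (0.46, SE 0.14). CD14, too low to test, had 0.522 to 0.728 FPKM in bufotalin and 0 to 0.0758 FPKM in control. ITGAM, also too low to test, was listed at 0 in all 3 bufotalin libraries and at 0.0254 to 0.0703 FPKM in control. The summed level of 8 of 13 fibroblast markers was 23.9 to 29.8 FPKM in bufotalin and 84.2 to 88.7 FPKM in control. Of 7 endothelial markers 2 were analysed and they went opposite ways. EGFL7 had 9.84, 8.28 and 7.22 FPKM in bufotalin and 33.6, 32.1 and 32.2 FPKM in control libraries, and fell (-1.84, SE 0.12). CDH5, an endothelial cadherin, had 0.746, 0.844 and 1.24 FPKM in bufotalin and 0.0888, 0.00702 and 0.101 FPKM in control libraries, and rose (0.86, SE 0.12). The sum of both was 8.46 to 10.6 FPKM in bufotalin and 32.2 to 33.7 FPKM in control. Their part in the PPARG result was not tested. TF was the only 1 of 13 hepatocyte markers analysed, at 0.0015 to 0.0402 FPKM in bufotalin and listed at 0 in control libraries.

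ACLY was the most abundant of the 4 genes and, in the deposited values, the least changed of the 3 that fell. ACLY (ENSG00000131473; chromosome 17, 41866917 to 41930542) had 60.3, 48.5 and 63.4 FPKM in bufotalin replicates 1, 2 and 3, and 107, 92.9 and 123 FPKM in control replicates 1, 2 and 3. The groups did not overlap, although the gap between the highest treated and the lowest control library was the narrowest in proportion among the 4 genes. The means were 57.4 ± 7.88 FPKM in bufotalin and 108 ± 15.3 FPKM in control (SD, n = 3 each), a 1.88-fold lower level (log2 fold change -0.90, SE 0.15, 95% confidence interval -1.23 to -0.57, adjusted p = 0.000288 by limma). ACLY had -0.55 after scaling to equal medians and -1.16 under quantile normalization, still called in both, and under the second it changed more than CPT2 (-0.99).

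Other genes that feed fatty acid synthesis fell with ACLY. Of 12 listed genes 8 were tested, of which 6 fell and 2 rose. ACLY itself is among the 6, and 48.8% of all tested genes were called lower. ME1, the malic enzyme that supplies NADPH, fell to 10.02 ± 1.35 FPKM in bufotalin, against 34.7 ± 1.45 FPKM in control libraries (-1.70, SE 0.12). SLC25A1, the mitochondrial citrate carrier upstream of ACLY, fell to 33.6 ± 4.91 FPKM, against 78.2 ± 3.36 FPKM (-1.20, SE 0.12). ACSS2, which makes acetyl-CoA from acetate and so bypasses ACLY, fell to 12.5 ± 2.19 FPKM, against 33.3 ± 3.40 FPKM (-1.36, SE 0.14). ACACB, the acetyl-CoA carboxylase whose product restrains fatty acid entry into mitochondria, fell to 1.66 ± 0.330 FPKM, against 7.49 ± 0.933 FPKM (-1.68, SE 0.14). The 2 that rose, named after their values were seen, were the mitochondrial malonyltransferase MCAT (0.57) and MID1IP1, which activates acetyl-CoA carboxylase (0.52, but 0.21 and no call under quantile normalization). MLYCD, which degrades malonyl-CoA, was called at -0.55 but had 0.022 under quantile normalization.

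FADS2 was the only one of the 4 genes that rose. FADS2 (ENSG00000134824; chromosome 11, 61792980 to 61867354) had 19.0, 14.7 and 19.5 FPKM in bufotalin replicates 1, 2 and 3, and 7.18, 7.0 and 5.72 FPKM in control replicates 1, 2 and 3. The lowest treated library was above the highest control library. The means were 17.7 ± 2.63 FPKM in bufotalin and 6.63 ± 0.799 FPKM in control (SD, n = 3 each), a 2.68-fold higher level (log2 fold change 1.29, SE 0.14, 95% confidence interval 0.98 to 1.60, adjusted p = 2.38e-05 by limma).

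The listed locus of FADS2 begins 23223 bases before the RefSeq start of the gene. It thereby covers 4259 bases of FEN1, a flap endonuclease gene, and all of FADS1, which encodes the delta-5 desaturase. FEN1 rose to 102 ± 11.1 FPKM in bufotalin, against 55.1 ± 1.62 FPKM in control libraries, and FADS1 was not analysed here. Strandedness of the libraries was not given in the sources used here, so how far reads of these overlapping genes entered the FADS2 values was not tested.

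Desaturation and elongation was the enzyme group in which most tested members rose, 4 of 5, with 18 listed. FADS2 itself is among these 4, and 44.3% of all tested genes were called higher. HACD2, a dehydratase of fatty acid elongation, rose to 96.3 ± 7.75 FPKM in bufotalin, against 37.4 ± 4.24 FPKM in control (1.34, SE 0.12). FADS3, the third gene of the desaturase cluster, rose to 20.1 ± 0.289 FPKM, against 11.7 ± 0.622 FPKM (0.74, SE 0.10). HACD4, another dehydratase of the family, fell to 0.232 ± 0.041 FPKM, against 2.09 ± 0.143 FPKM (-1.33, SE 0.10). HACD3 was called at 0.92 (SE 0.36), with 18.7 FPKM in control replicate 2 and 47.2 and 49.1 FPKM in the other control libraries. Its call was lost without bufotalin replicate 1, 2 or 3 (0.85 to 0.96) and under quantile normalization (0.68), and without control replicate 2 it had 0.48, still called.

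Around FADS2 on chromosome 11, most measured neighbours were higher with bufotalin. Of 10 listed genes from DAGLA to FTH1, FADS2 among them, 7 were analysed, of which 5 rose, 1 fell and 1 was not called. FADS2 itself is among the 5, and 44.3% of all tested genes were called higher. DAGLA, TMEM258 and FADS1 were not analysed, so the region is covered only in part. RAB3IL1, a Rab exchange factor gene, rose (0.81, SE 0.13), and so did FTH1, the ferritin heavy chain gene (1.01, SE 0.20). BEST1, a chloride channel gene whose listed locus overlaps FTH1, had 52.1, 57.9 and 45.4 FPKM in bufotalin and 26.8, 24.9 and 55.6 FPKM in control libraries, and was not called (0.61, SE 0.29). It was called without control replicate 3 (0.97) and after scaling to equal medians (0.96). MYRF, a membrane-bound transcription factor gene, fell to 5.4 ± 0.451 FPKM in bufotalin, against 12.4 ± 0.970 FPKM in control (-1.07, SE 0.11).

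**Figure D2:**
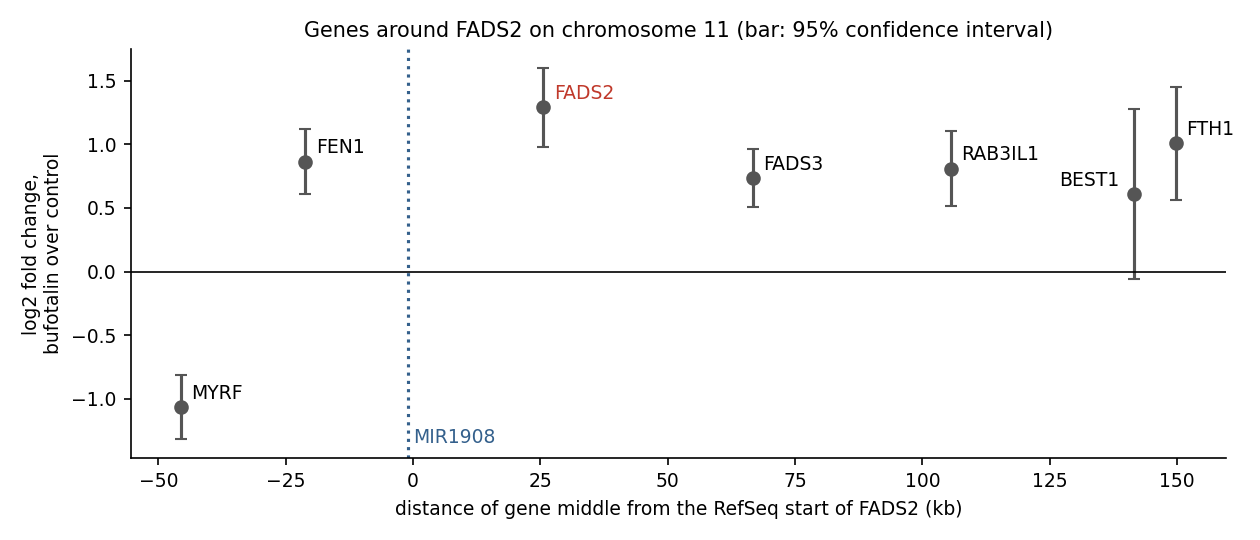
Log2 fold change of bufotalin over control (vertical axis, points, with 95% confidence intervals from limma) for the analysed genes around FADS2, by the distance of each gene's middle from the RefSeq start of FADS2 in kb (horizontal axis). FADS2 is highest at 1.29, MYRF is below 0 at -1.07, the interval of BEST1 includes 0, and the dotted line marks MIR1908.

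miR-1908-5p was lower in every treated library, in the opposite direction to FADS2, but did not pass the test. The mature miRNA lies 974 bases upstream of the RefSeq start of FADS2 and on the opposite strand. It lies 1774 bases inside FADS1, as RefSeq places that gene, so it is within FADS2 only by the longer listed locus. It was counted 6, 24 and 15 times in bufotalin replicates 1, 2 and 3, and 138, 32 and 28 times in control replicates 1, 2 and 3. In CPM, counts scaled to the same total in every library, this was 3.21, 7.19 and 5.25 in bufotalin and 32.9, 15.6 and 13.8 CPM in control libraries. The groups did not overlap, as for 27.3% of tested miRNAs, and control replicate 1 was about double the other control libraries.

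The means of miR-1908-5p were 5.22 ± 1.99 CPM in bufotalin and 20.7 ± 10.5 CPM in control (SD, n = 3 each), 3.98-fold lower with bufotalin. By edgeR's quasi-likelihood test the log2 fold change was -1.802 (SE 0.50), with adjusted p = 0.0613 over 477 tested miRNAs, of which 5.66% passed and 3.56% passed as lower. It passed with DESeq2 (-1.79, adjusted p = 0.0287), without the filter on low counts (-1.88, 0.014), and without control replicate 2 (-2.13, 0.0462) or 3 (-1.98, 0.0353) by edgeR. It did not pass without control replicate 1 (-1.29) or without any one bufotalin library, and adjusted p ran from 0.014 to 0.172 over 10 alternatives. The other arm, miR-1908-3p, was counted 0 times in all 3 bufotalin libraries and 1, 5 and 0 times in control, too low to test. A count of 0 allows up to 1.60, 0.898 and 1.05 CPM in bufotalin replicates 1, 2 and 3, at 3 counts per library. Such a limit covers counting error alone: without molecular identifiers, reads of 1 molecule may be counted more than once.

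In the deposited values, CPT2 fell almost as far as PPARG and was the lowest of the 4 genes in treated tumours. CPT2 (ENSG00000157184; chromosome 1, 53196792 to 53214197) had 1.84, 2.05 and 1.88 FPKM in bufotalin replicates 1, 2 and 3, and 5.98, 7.59 and 8.53 FPKM in control replicates 1, 2 and 3. The treated libraries lay close together and all below the control libraries. The means were 1.93 ± 0.112 FPKM in bufotalin and 7.37 ± 1.29 FPKM in control (SD, n = 3 each), a 3.82-fold lower level (log2 fold change -1.50, SE 0.14, 95% confidence interval -1.81 to -1.20, adjusted p = 9.3e-06 by limma). Under quantile normalization CPT2 had -0.99 and was still called, but it fell less than PPARG (-1.525) and ACLY (-1.16).

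Most tested genes of fatty acid oxidation fell with CPT2. In the carnitine shuttle and mitochondrial beta-oxidation, 13 of 25 listed genes were tested, of which 12 fell and 1 rose. CPT2 itself is among the 12, and 48.8% of all tested genes were called lower. Of the 12, ETFB, an electron carrier subunit whose groups overlapped, had -0.54 but -0.19 and no call after scaling to equal medians, and its call was also lost with no FPKM minimum and without any one library other than control replicate 3 (-0.58 to -0.31). SLC22A5, the carnitine transporter, was not called after that scaling (-0.24) or under quantile normalization (-0.14), nor was CPT1C, a relative of CPT1A in brain, under quantile normalization (-0.68) or without control replicate 2 (-1.14). CRAT, carnitine acetyltransferase, fell to 4.53 ± 0.986 FPKM in bufotalin, against 24.5 ± 1.05 FPKM in control libraries (-2.22, SE 0.14). ACADS, the short-chain acyl-CoA dehydrogenase, fell to 4.28 ± 0.334 FPKM, against 18.6 ± 1.41 FPKM (-1.89, SE 0.11). ACAD11, a dehydrogenase of longer acyl-CoA, fell to 3.36 ± 0.221 FPKM, against 13.7 ± 1.68 FPKM (-1.75, SE 0.12). ECI2, an enoyl-CoA isomerase for unsaturated fatty acids, fell to 12.6 ± 0.859 FPKM, against 38.1 ± 3.77 FPKM (-1.52, SE 0.12). The 1 that rose was CPT1A, the outer-membrane partner of CPT2 that controls entry to the shuttle, with 47.1 ± 3.43 FPKM in bufotalin and 34.9 ± 5.22 FPKM in control (0.43, SE 0.13, named after its values were seen). Under quantile normalization CPT1A had 0.18 and was not called.

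In peroxisomes, 6 of 14 listed beta-oxidation genes were tested and all 6 fell, beside 48.8% of all tested genes. EHHADH, the peroxisomal bifunctional enzyme, had 1.26, 1.22 and 1.29 FPKM in bufotalin and 11.7, 12.6 and 14.4 FPKM in control libraries (-2.62, SE 0.12). The treated libraries were almost equal to each other and far below control. HSD17B4, the second bifunctional enzyme, fell to 17.4 ± 5.17 FPKM, against 53.0 ± 1.79 FPKM (-1.59, SE 0.18), DECR2, a dienoyl-CoA reductase, had -1.04, and ACAA1, a thiolase, had -0.96. The 3 tested ketone body genes fell too. BDH1 and BDH2, the hydroxybutyrate dehydrogenases, had -1.72 and -1.31 (SE 0.16 and 0.14). ACAT1, the mitochondrial acetoacetyl-CoA thiolase, fell to 44.4 ± 1.31 FPKM in bufotalin, against 105 ± 7.79 FPKM in control (-1.22, SE 0.11).

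Uptake, activation and storage genes were mixed, as was the whole table, with 44.3% of tested genes called higher and 48.8% lower. Of 25 listed uptake, binding and activation genes 7 were tested, of which 3 rose and 4 fell. SLC27A1, a fatty acid transport protein and one of the 4 (-0.90), had -0.19 and no call under quantile normalization. SLC27A2, a very-long-chain acyl-CoA synthetase, rose to 26.6 ± 1.82 FPKM in bufotalin, against 11.5 ± 0.682 FPKM in control (1.14, SE 0.11). ACSF2, another acyl-CoA synthetase, fell to 5.78 ± 0.803 FPKM, against 17.9 ± 0.880 FPKM (-1.49, SE 0.12), and LIPA, the lysosomal acid lipase, to 10.4 ± 1.32 FPKM, against 29.8 ± 4.31 FPKM (-1.43, SE 0.14). Of 26 listed triglyceride and lipid droplet genes 9 were tested, of which 4 rose, 4 fell and 1 was not called. The last was GPAM, which starts glycerolipid synthesis, with 6.65 ± 0.760 FPKM in bufotalin and 5.32 ± 0.987 FPKM in control (0.28, SE 0.14). GPAM was called higher after scaling to equal medians (0.59), under quantile normalization (0.71), and without bufotalin replicate 1 (0.36) or control replicate 3 (0.41). DGAT2, another triglyceride-making enzyme and one of the 4 that fell (-0.75), had -0.028 and no call under quantile normalization. PNPLA2, the adipose triglyceride lipase, rose (0.83, SE 0.12), while CIDEB, a droplet protein of hepatocytes, and DGAT1, which makes triglyceride, fell (-1.52, SE 0.12, and -0.75, SE 0.12, the second -0.38 under quantile normalization and still called).

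Over the 9 lists together, 166 genes were listed, 69 were in the table and 67 were tested. Of these 43 fell, 23 rose and 1 was not called, a share of 98.5% called beside 93.2% of all tested genes. The lower share was 65.2% of called genes, beside 52.4% over the table, and the median log2 fold change was -0.80, beside 0.13 over all tested genes. Scaling to equal medians moved the median of the lipid genes to -0.49 and that of all tested genes to 0.45. Relative to the median of all tested genes, PPARG had -1.95, CPT2 -1.64, ACLY -1.03 and FADS2 1.16 as deposited, and -1.95, -1.67, -0.99 and 1.17 after that scaling. Such scaling multiplies each library by 1 factor and moves genes and median nearly alike, so these values could hardly change. Quantile normalization, which can change them, gave -1.56, -1.02, -1.20 and 1.46 in the same order of genes.

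**Figure D3:**
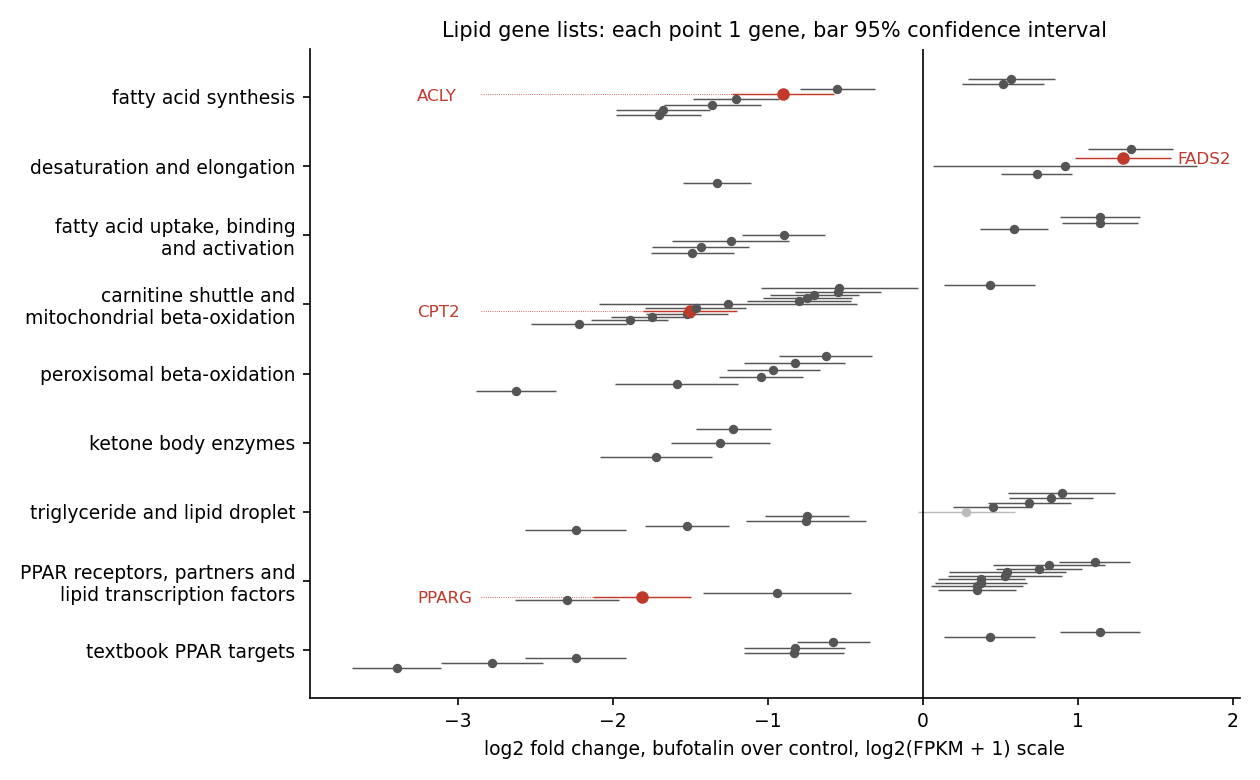
Log2 fold change of bufotalin over control on the log2(FPKM + 1) scale (horizontal axis) for each tested gene of the 9 lipid lists, with bars for the 95% confidence interval from limma; the 4 genes are in red and named, and the 1 gene in pale grey was not called. All points of the peroxisomal and ketone body lists lie left of 0, as do 12 of 13 in the carnitine shuttle and mitochondrial list, while 4 of 5 in the desaturation list lie right of 0.

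The order of the 4 genes differed between groups. FPKM is a level per length, so levels can be compared between genes. For FADS2 this is limited, because how far reads of the overlapping genes entered its values was not tested. With bufotalin the order was ACLY, FADS2, PPARG and CPT2, and the 3 libraries of no gene overlapped those of its neighbour in the order. In control libraries the order was ACLY, PPARG, CPT2 and FADS2, and the ranges of CPT2 and FADS2 overlapped (5.98 to 8.53 and 5.72 to 7.18 FPKM). Within a library, the ratio of ACLY to FADS2 was 3.17, 3.29 and 3.26 in bufotalin replicates 1, 2 and 3, and 14.9, 13.3 and 21.6 in control replicates 1, 2 and 3. The ratio was nearly the same in the 3 treated libraries and lower there than in any control library. The ratio of PPARG to CPT2 overlapped between groups, with 1.798 ± 0.289 in bufotalin and 2.06 ± 0.627 in control libraries (SD, n = 3 each).

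The profiles most like those of the 4 genes were sought among 4021 other genes averaging at least 1 FPKM, by the smallest root mean square difference of log2(FPKM + 1), centred on each gene's own mean, over the 6 libraries. For PPARG they were RIN1, CD82 and FRMD3 (differences of 0.083, 0.095 and 0.105), and for ACLY they were DNAJC13, NSUN4 and SEMA4F (0.071, 0.080 and 0.084). For FADS2 they were CCDC86, IL2RB and C2CD2L (0.078, 0.103 and 0.110), and for CPT2 they were ZNF862, IPP and TSPAN13 (0.060, 0.060 and 0.078). CCDC86, the closest to FADS2, had 67.0, 59.7 and 67.9 FPKM in bufotalin and 28.03, 29.6 and 23.8 FPKM in control libraries. Like FADS2, CCDC86 was lowest in bufotalin replicate 2 and control replicate 3 within each group, a likeness for which the search itself selected.

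**Figure D4:**
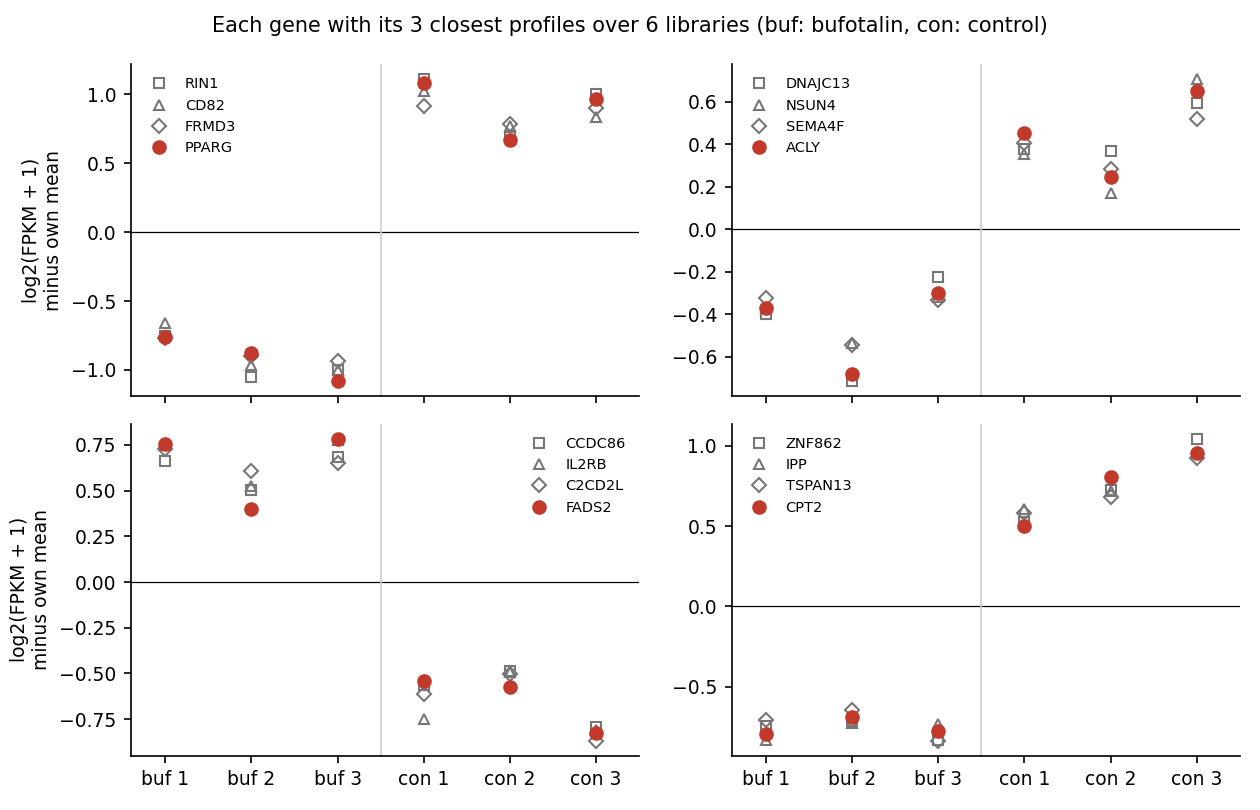
log2(FPKM + 1) minus the gene's own mean over 6 libraries (vertical axis) for PPARG, ACLY, FADS2 and CPT2 in red and their 3 closest genes in grey symbols, by library, bufotalin left of the grey line and control right of it. The closest genes differ from the red points by 0.060 to 0.110 (root mean square), and FADS2 alone is above 0 with bufotalin.

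The lncRNA table lists noncoding transcripts, some of them from protein-coding genes, and 8 of its 536 transcripts carry the name of a lipid gene listed above; none carries the name of PPARG, ACLY, FADS2 or CPT2. limma on log2(FPKM + 0.1) called 7 of these 8, 5 lower and 2 higher, beside 73.3% of 465 tested transcripts, 44.1% lower and 29.2% higher. For ELOVL1, an elongase of very long fatty acids, 2 overlapping transcripts moved in opposite directions. ELOVL1-203 had 2.21, 8.89 and 1.55 FPKM in bufotalin and 0, 0.181 and 0 FPKM in control libraries, and rose (adjusted p = 0.00348). ELOVL1-214 had 0.00784, 0.0672 and 0.00459 FPKM in bufotalin and 0.447, 3.29 and 0.400 FPKM in control, and fell (adjusted p = 0.0185, but 0.0653 by limma without bufotalin replicate 1 or 3, and 0.0949 with a pseudocount of 1). Replicate 2 of each group was highest for both transcripts, and reads of overlapping transcripts may be split between them.

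The other called transcripts went the same way as their gene. UCP2-208 had 0.430, 0.209 and 0.429 FPKM in bufotalin and 7.04, 7.57 and 4.42 FPKM in control libraries, and fell (adjusted p = 0.000498). NR1H3-228 was listed at 0 in all 3 bufotalin libraries and at 0.255, 0.502 and 0.368 FPKM in control (adjusted p = 0.000781). CPT1C-219 was also listed at 0 in bufotalin, and at 1.73, 0.646 and 0.164 FPKM in control (adjusted p = 0.0137, a call lost with a pseudocount of 1), and BDH1-217 fell (adjusted p = 0.00764). LPL-203 had 12.2, 16.1 and 0.773 FPKM in bufotalin and 0.216, 0.154 and 0.285 FPKM in control (adjusted p = 0.0221), a call that was lost without any one library other than bufotalin replicate 3. PNPLA2-204 had 1.17, 0 and 0.349 FPKM in bufotalin, was listed at 0 in control, and was not called, except without bufotalin replicate 2 (adjusted p = 0.00794).

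Of 21 miRNAs known for acting on lipid genes, 18 were tested. None passed by edgeR, 2 of 17 passed by DESeq2, and 3 had an unadjusted p under 0.05 by edgeR, beside 26.0% of all 477 tested miRNAs. miR-27a-3p, a repressor of PPARG in fat cells, had 28121, 24173 and 15007 CPM in bufotalin and 14745, 8158 and 6372 CPM in control libraries (log2 fold change 1.33, SE 0.35, adjusted p = 0.051). Every treated library was above every control library, though the lowest treated and the highest control library nearly met. It passed with DESeq2 (adjusted p = 0.00778), without control replicate 1 (0.00721) and without the filter on low counts (0.0163). miR-33b-3p, from an intron of the lipogenic regulator gene SREBF1, had 3.21, 1.497 and 1.75 CPM in bufotalin and 7.15, 9.25 and 4.42 CPM in control (-1.55, SE 0.48, adjusted p = 0.0823). miR-34a-5p had 223, 184 and 141 CPM in bufotalin and 325, 711 and 248 CPM in control (-1.004, SE 0.32, adjusted p = 0.0831), passing with DESeq2 (0.0499) and without control replicate 3 (0.0442). miR-30c-5p, known for lowering lipoprotein secretion in mouse liver, had 6824 ± 1166 CPM in bufotalin and 4785 ± 2280 CPM in control (0.66, SE 0.33, adjusted p = 0.238), and passed without control replicate 1 (1.11, 0.0262).

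**Figure D5:**
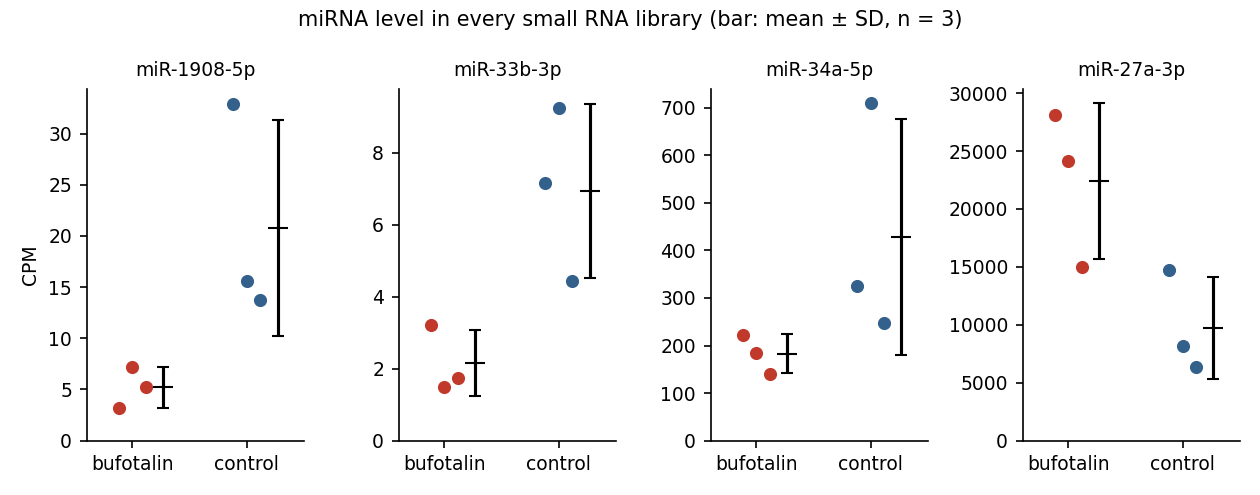
CPM of miR-1908-5p, miR-33b-3p, miR-34a-5p and miR-27a-3p in each small RNA library, bufotalin in red and control in blue, with mean ± SD (n = 3) beside the points and each vertical axis starting at 0. The first 3 are lower in every bufotalin library and miR-27a-3p is higher in every one, and none passed the edgeR test (adjusted p 0.051 to 0.0831).

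The small RNA libraries held 1869893 to 4197636 counts. Summed over the mRNA table, a library had 114207 to 121337 FPKM in bufotalin and 102677 to 105803 FPKM in control. The median of the table went the other way, with 6.10 to 6.26 FPKM in bufotalin and 7.80 to 8.08 FPKM in control libraries. Fold changes between the groups therefore depend on the scaling, and scaling to equal medians and quantile normalization are among the alternatives. The depth of the total RNA libraries is unknown, so FPKM values carry no counting interval.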

How the data were processed

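Total RNA and small RNA from xenograft tumours were measured in 3 bufotalin and 3 control libraries each, grouped by the sample titles. The authors deposited FPKM values per gene (mRNA) and per transcript (lncRNA) for features they had selected as different, and read counts per mature miRNA beside TPM values. The deposited TPM held no length correction and equalled counts as a share of the library total (largest difference 4.37e-10), so it is called CPM here. The submitters' processing notes name CASAVA 1.8, fastp, HISAT2 2.0.5, featureCounts 1.5.0-p3, DESeq2 1.20.0 and GRCh38; their roles, the selection rule and strandedness are not given in the sources used here.

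Tests were two-sided and fitted on each whole table, with p-values adjusted by Benjamini and Hochberg's method and called under 0.05. limma 3.58.1 (trended, robust eBayes) was used on log2(FPKM + 1) for mRNA with a mean of 0.5 FPKM or more, and on log2(FPKM + 0.1) for lncRNA with a mean of 0.1 FPKM or more. edgeR 4.0.16 (TMM, filterByExpr, robust quasi-likelihood) was used on miRNA counts, with DESeq2 1.42.0 as an alternative. The limma fit for mRNA and the edgeR fit for miRNA were checked on simulated data in R 4.3.3. The lncRNA setting and DESeq2 were not. The 4 genes passed the filter and matched the RefSeq promoter table by symbol. Between replicates, chi-square per degree of freedom of the miRNA counts was 219 to 522, far above counting error, so no library was a copy. Ratios of low FPKM values between libraries repeated too rarely (at most 9 of 231, to 3 decimals) to recover reads. Alternatives were other pseudocounts, filters, scalings and tools, a replicate block, and each library left out. The genes and lists were chosen with earlier results of these data known. Named were the 4 genes and miR-1908, up to 4 genes of each list and 4 lipid miRNAs by smallest p, 3 closest profiles per gene, and lncRNA transcripts of listed genes; the remaining genes around FADS2, MCAT, MID1IP1, MLYCD, HACD3, PPARA, CPT1A, GPAM, the other list genes whose call an alternative changed, and the marker genes were named after their values were seen.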

Additional observations from a re-analysis of the deposited data

How the results depend on the processing

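PPARG, CPT2, ACLY and FADS2 kept their direction and their call under all 13 alternatives, with log2 fold changes of -2.08 to -1.50, -1.92 to -0.99, -1.16 to -0.55 and 1.202 to 1.62. The 33 genes named from the lists by smallest p did so too, in 429 of 429 values. They were picked for small p on these same libraries, so kept calls were nearly fixed by that choice. Other list genes lost their call, as given above. Pseudocounts and scaling moved the sizes of low genes: CIDEC ran from -4.92 to -1.74, PCK1 from -4.79 to -2.37, HACD4 from -3.13 to -0.73, BDH1 from -2.61 to -1.08, CIDEB from -2.41 to -0.84 and BDH2 from -1.95 to -0.63. The called lipid genes numbered 57 to 66. The median log2 fold change of all tested genes, 0.13, turned to -0.14 with no FPKM minimum and ran from -0.27 to 0.18 with each library left out, below 0 without bufotalin replicate 1, 2 or 3 (-0.17, -0.06 and -0.27); the tested genes differed between these settings. MLYCD turned to 0.022 under quantile normalization, and the cause was not tested. miR-1908-5p passed with no filter beyond 1 count (-1.88) and with DESeq2 (-1.79), and ran from -2.13 to -1.29 with each library left out. The called miRNAs, 27 (37.0% higher), were 21 (23.8% higher) by library totals without TMM, 40 with no filter beyond 1 count, 59 with DESeq2, 6 to 40 with each library left out, and 13, 8 and 6 without bufotalin replicate 1, 2 and 3. With the replicate number as a block, 3 miRNAs were called, miR-1908-5p had -1.70 (adjusted p = 0.154 by edgeR), and the 4 genes kept their calls (highest adjusted p 0.000514 by limma). Same-numbered libraries of the groups had deviations correlated at -0.017, 0.026 and -0.052 for mRNA and 0.146, 0.028 and 0.379 for miRNA, and not every library correlated best with its own number, so the numbers were not taken as pairs. Low counts limit miR-1908-5p, at 6 to 24 reads in bufotalin libraries.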

Other observations

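Among the lipid miRNAs too low to test, miR-223-3p, known from myeloid cells, was counted 317 times in bufotalin replicate 2 (94.9 CPM) and 4 and 5 times in bufotalin replicates 1 and 3, against 9, 5 and 2 times in control libraries. miR-122-5p, the miRNA most typical of hepatocytes, had 36.4, 35.6 and 15.4 CPM in bufotalin and 23.3, 24.3 and 116 CPM in control libraries, where control replicate 3 stood above the others (log2 fold change -0.98, SE 0.72, adjusted p = 0.445 by edgeR).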
